A study of Mus musculus with 24 samples.

Results

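The genes described here are 34 genes of fatty acid oxidation and of its regulation by PPAR-alpha, out of 14785 genes in a mouse kidney RNA sequencing table. They were chosen by symbol, as known enzymes, carriers and regulators of the pathway, and each of the 34 had exactly 1 row. Kidneys came from male mice of strain C57/BL6, labelled as 8 weeks old, in 6 groups of 4 sequenced animals out of 10 per group in the study, and how the 4 were picked is not given in the sources used here. Unilateral ureteral obstruction ties off 1 ureter and blocks the outflow of that kidney. The groups were sham surgery, obstruction for 2 days (UUO2), obstruction for 7 days (UUO7), and obstruction for 7 days followed by surgical reversal with 1 week (R1W), 2 weeks (R2W) or 4 weeks (R4W) of recovery. The labels name no altered gene and no agent beyond the surgery. Each library comes from whole kidney tissue, so fewer cells of a type and less RNA per cell cannot be told apart. The values are FPKM, fragments per kilobase of transcript scaled to the library's depth, which allow comparison of levels between genes per length.

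Fatty acids are taken up by the tubule cell, joined to coenzyme A, and carried as carnitine esters into mitochondria, where each turn of beta-oxidation removes a short unit and passes electrons to the respiratory chain. Very long and branched chains are first shortened in peroxisomes. The nuclear receptor PPAR-alpha, with its coactivator PGC-1 alpha, switches on many of these genes. In the kidney the pathway is most active in the proximal tubule, a segment that depends on fatty acids for its energy.

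Fatty acid oxidation genes fell together during obstruction. After 7 days, 32 of the 34 genes were called lower than in sham and 0 were called higher, with a median log2 fold change of -1.13. Genes count as called where limma, run on log2(FPKM + 1) for the whole table, gave an adjusted p (Benjamini-Hochberg) under 0.05. Over all 14785 genes, 17.8% were called lower in the same comparison and 60.1% higher, with a median of 0.42. The 2 genes not called were Acot1 and Acaa1a. In all 32 called genes each of the 4 UUO7 kidneys lay below each of the 4 sham kidneys. Together the 34 genes held 1.41% ± 0.0834 of all FPKM of a sham library and 0.513% ± 0.0269 of a UUO7 library (SD, n = 4). That share was 0.922% ± 0.0623 in R4W.

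FPKM are shares of a library, and the median over all genes of the UUO7 against sham log2 fold change was 0.42. Values were therefore also rescaled so that the median gene is level between libraries. Rescaled, 33 of the 34 genes were called lower in UUO7 with a median of -1.61, against 36.5% of all genes called lower and 36.5% called higher. Rescaling lowered the log2 fold changes of the 34 genes by 0.40 to 0.49 in UUO7 against sham, and for 14 of the 32 called genes the rescaled fall was over 1.5 times the deposited one. It lowered them by 0.13 to 0.14 in UUO2 and by 0.34 to 0.38 in R4W, so the size of a fall on deposited values, and its order between groups, depend on the scaling. In the authors' deposited table all 34 were lower at an adjusted p under 0.05, as were 37.9% of all genes there. The unit of the table was inferred from its values, since neither the header nor the labels name it.

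Several features of the libraries bear on these genes. Whole-read steps among low values gave an implied depth of 24.6 to 35.7 M fragments in 17 libraries, and no steps were found in the other 7, which include all 4 of UUO2. The mitochondrial ribosomal RNA mt-Rnr1 lay at 2343 to 2832 FPKM in UUO2 and at 342 to 709 elsewhere, so a library difference coincides with the UUO2 group and cannot be told apart from it. Fat tissue markers were present in 4 libraries. The summed level of 6 measured adipocyte markers of 8 listed was 924 FPKM in R4W replicate 1, 257 in R4W replicate 3, 138 in sham replicate 2 and 14.9 in UUO7 replicate 3, and at most 1.77 in the other 20. Where a p-value printed below for a called gene is above 0.05 without these 4 libraries, that value is given beside it. The 12 proximal tubule markers summed to 6109.6 to 6996 FPKM in sham, 1164 to 1551 in UUO7 and 3035 to 4309 in R4W. All 12 were called lower in UUO7, with a median log2 fold change of -2.14, and 11 of 12 were lower in R4W. The part of these marker changes in the falls described below was not tested.

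**Figure D1:**
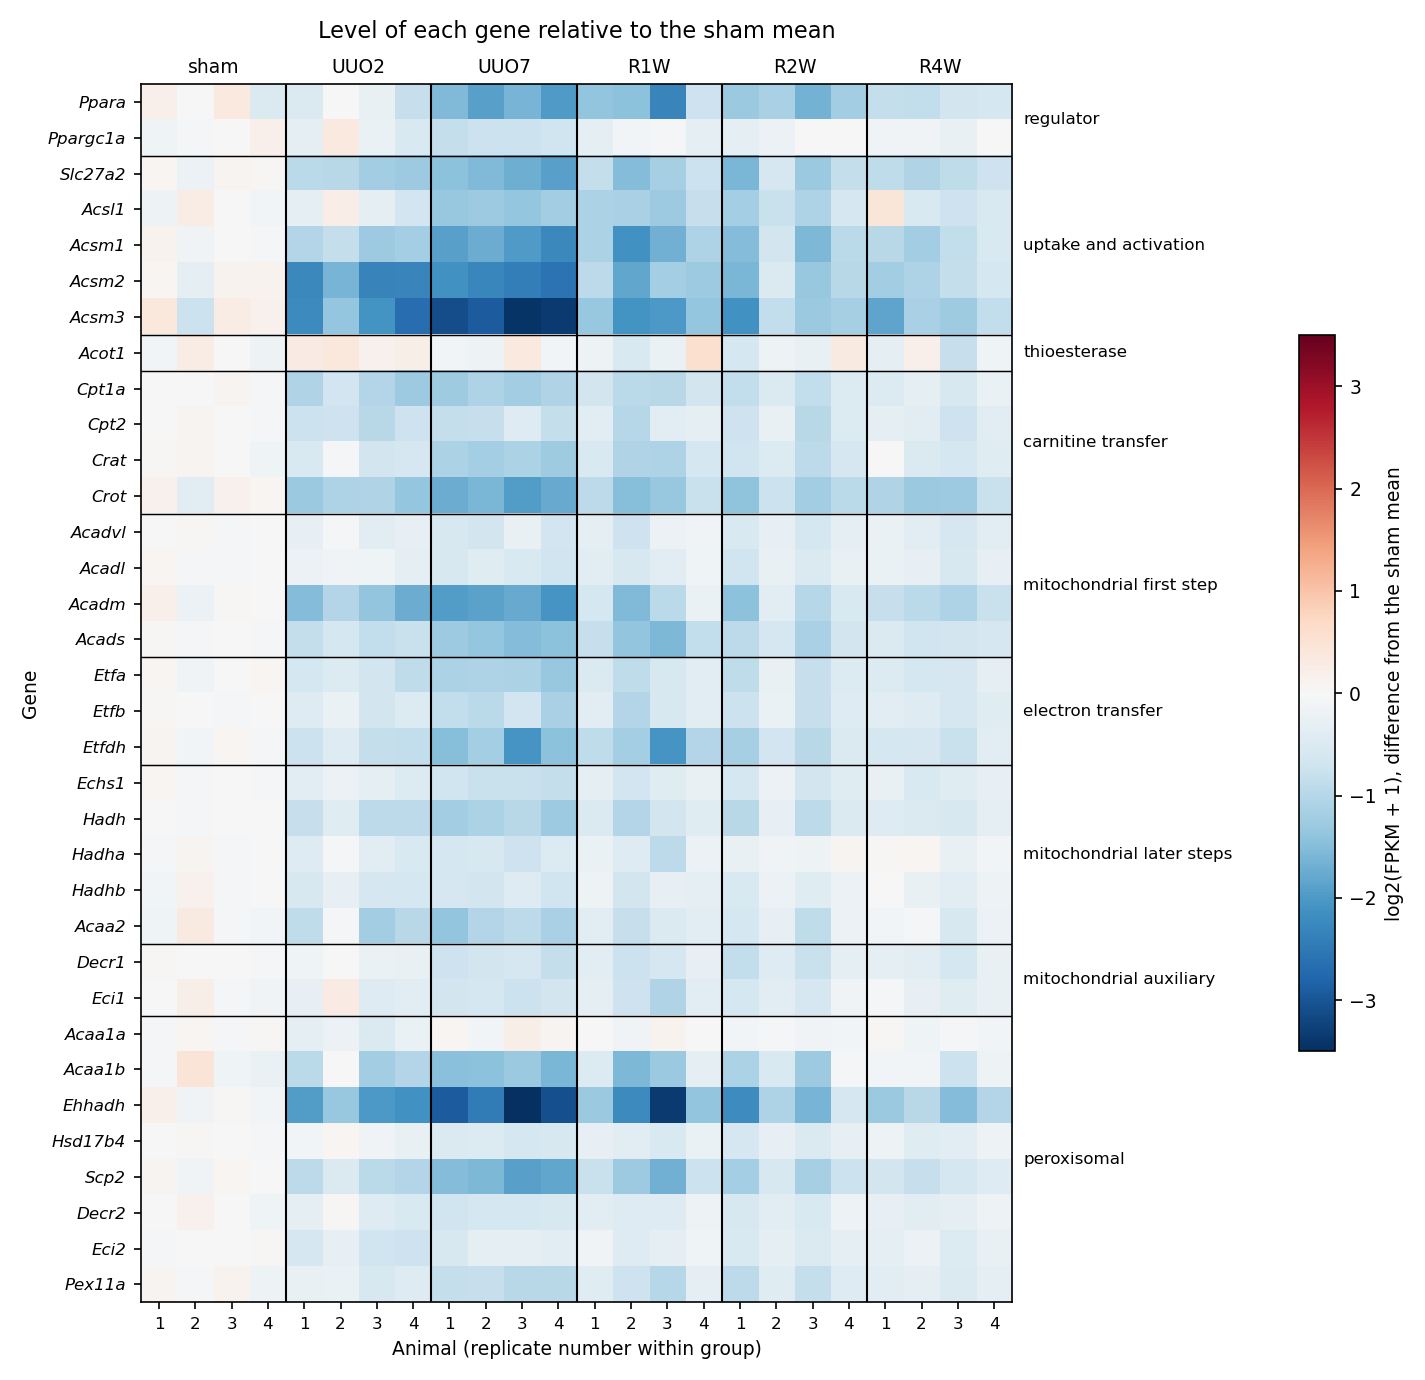
Levels of the 34 genes in each of the 24 kidneys, as the difference of log2(FPKM + 1) from the sham mean, with genes in rows ordered by role and animals in columns. Blue is lower and red is higher than sham. In the UUO7 columns Acsm3 and Ehhadh are the deepest blue, while Acot1 and Acaa1a are near white.

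Both regulators were lower after 7 days of obstruction. Gene positions below are those of the deposited table, for which the submitters' processing notes name mm10. Ppara (chromosome 15, 85734983 to 85802819, plus strand), the receptor itself, was measured at 11.0, 9.71, 12.4 and 6.53 FPKM in sham, 6.51, 9.65, 7.86 and 5.12 in UUO2 and 2.65, 1.85, 2.48 and 1.68 in UUO7. The UUO7 kidneys lay below all sham kidneys, while those of UUO2 overlapped with sham. The log2 fold change of Ppara was -1.77 in UUO7 against sham (SE 0.24, limma adjusted p = 1.08e-06) and -0.40 in UUO2 against sham (adjusted p = 0.185). In the authors' deposited table Ppara was -3.32 in UUO7 and -0.78 in UUO2, with an adjusted p of 1.07e-57 and 0.00416. Its day-2 call therefore depends on the model. After reversal the R1W kidneys had 3.13, 2.97, 1.16 and 5.50 FPKM of Ppara and those of R2W 3.34, 3.87, 2.38 and 3.60. R4W kidneys had 5.02, 4.88, 5.82 and 5.91 FPKM. All 4 R4W values were below the lowest sham value, with a log2 fold change of -0.74 (SE 0.24, limma adjusted p = 0.0107). Without the 4 libraries with adipocyte markers it was -0.74 and not called (adjusted p = 0.0746).

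Ppargc1a (chromosome 5, 51454250 to 51567726, minus strand), the gene of PGC-1 alpha, lay at 7.99, 8.80, 9.07 and 10.3 FPKM in sham and 4.60, 4.89, 4.96 and 5.17 in UUO7, with no overlap. Its log2 fold change was -0.76 (SE 0.13, limma adjusted p = 2.36e-05). In R1W it was at 6.96, 8.28, 8.69 and 6.92 FPKM, above every UUO7 kidney, a rise of 0.56 on the log2 scale (SE 0.13, limma adjusted p = 0.00932). Against sham the R1W difference of -0.20 was not called (adjusted p = 0.168), although on rescaled values it was -0.61 and called (0.000508), with every R1W kidney below sham. R4W values of 8.15, 8.19, 7.31 and 8.88 overlapped with sham, and the difference of -0.13 was not called (adjusted p = 0.379), although on rescaled values it was -0.47 and called. Within a library the ratio of Ppara to Ppargc1a does not depend on scaling between libraries. That ratio was 1.12 ± 0.348 (SD, n = 4) in sham, 0.445 ± 0.114 in UUO7, 0.434 ± 0.275 in R1W, 0.410 ± 0.106 in R2W and 0.668 ± 0.0901 in R4W.

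Uptake and activation held the most abundant genes and some of the steepest falls, with 5 of 5 called lower in UUO7 and a median log2 fold change of -1.97. Slc27a2 (chromosome 2, 126552407 to 126588243, plus strand), which encodes the very long-chain acyl-CoA synthetase and fatty acid transporter FATP2, was the highest of the 34 in sham. Its values were 2401, 1979.8, 2445 and 2357 FPKM in sham, 1185, 1162, 985 and 952 in UUO2 and 849, 789.6, 701 and 612 in UUO7. The 3 groups did not overlap, and Slc27a2 was 2.14 times lower than sham at day 2 and 3.12 times lower at day 7 on the log2(FPKM + 1) scale (limma adjusted p = 4.21e-05 and 5.53e-08). With 1238, 1104, 1230.3 and 1389 FPKM in R4W, every R4W kidney was still below every sham kidney.

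The genes Acsm1, Acsm2 and Acsm3 are neighbours on chromosome 7 and encode mitochondrial medium-chain acyl-CoA synthetases. Acsm3 (chromosome 7, 119760923 to 119787513, plus strand) had the largest fall of the 34. It lay at 678, 308, 624 and 577 FPKM in sham and 110.5, 204, 122 and 81.7 in UUO2. At day 7 it was down to 60.4, 68.7, 47.7 and 50.7 FPKM, a log2 fold change of -3.19 against sham (SE 0.30, limma adjusted p = 7.29e-09). Even the lowest sham kidney, replicate 2 with its fat tissue markers, was above every kidney of the other groups. In R1W the values of 209, 122, 130.0 and 205 FPKM were all above UUO7, with a rise of 1.50 on the log2 scale (SE 0.30, limma adjusted p = 0.00364) that was the largest among the 34. R4W stood at 145, 240.0, 219 and 288 FPKM.

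Acsm2 (chromosome 7, 119554340 to 119600690, plus strand) was second in abundance and had fallen by day 2. Its values were 2121, 1642, 2204 and 2238 FPKM in sham, 427, 663, 405 and 408 in UUO2 and 464, 419.8, 381 and 338 in UUO7. The log2 fold change was -2.13 at day 2 and -2.35 at day 7 (SE 0.22 for each), and the step from day 2 to day 7 of -0.22 was not called (limma adjusted p = 0.371). That step was -0.58 on rescaled values, also not called (adjusted p = 0.0515) although every UUO7 kidney lay below UUO2, and -1.15 with an adjusted p of 1.27e-06 in the authors' deposited table. Slc27a2 and Acsm2 together made up 39.6% ± 2.13 of the FPKM of the 34 genes in sham and 28.9% ± 2.44 in UUO7 (SD, n = 4). Acsm1 fell from 125 to 149 FPKM in sham to 27.5 to 39.7 in UUO7, a log2 fold change of -1.97.

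Acsl1 (chromosome 8, 46471037 to 46536051, plus strand), the main long-chain acyl-CoA synthetase, had the smallest day-7 fall in this role. It was at 48.3, 65.3, 55.4 and 51.6 FPKM in sham, 44.1, 65.1, 44.2 and 34.1 in UUO2 and 21.1, 22.3, 20.9 and 23.1 in UUO7. UUO2 overlapped with sham, whereas UUO7 was lower than both, with a log2 fold change of -1.29 against sham (SE 0.20, limma adjusted p = 6.46e-06). In R4W the values were 73.2, 37.4, 32.9 and 37.7 FPKM. Replicate 1, with the highest adipocyte marker sum of all libraries, stood far above the other R4W kidneys. Replicate 3, with the second highest sum, had the lowest R4W value. The part of fat tissue in these values was not tested. Acsl1 in R4W was not called against sham (-0.34, limma adjusted p = 0.137), although it was -0.60 and called without R4W replicate 1 (0.00446) and -0.71 and called on rescaled values (0.00639). Its rise from R1W to R4W was 0.74 on the log2 scale and called (limma adjusted p = 0.0176), and without the 4 libraries with adipocyte markers it was 0.55 and not called (adjusted p = 0.0977). The rise also lost its call without R1W replicate 3 (0.67, adjusted p = 0.0738) or R4W replicate 1 (0.49, adjusted p = 0.0624).

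**Figure D2:**
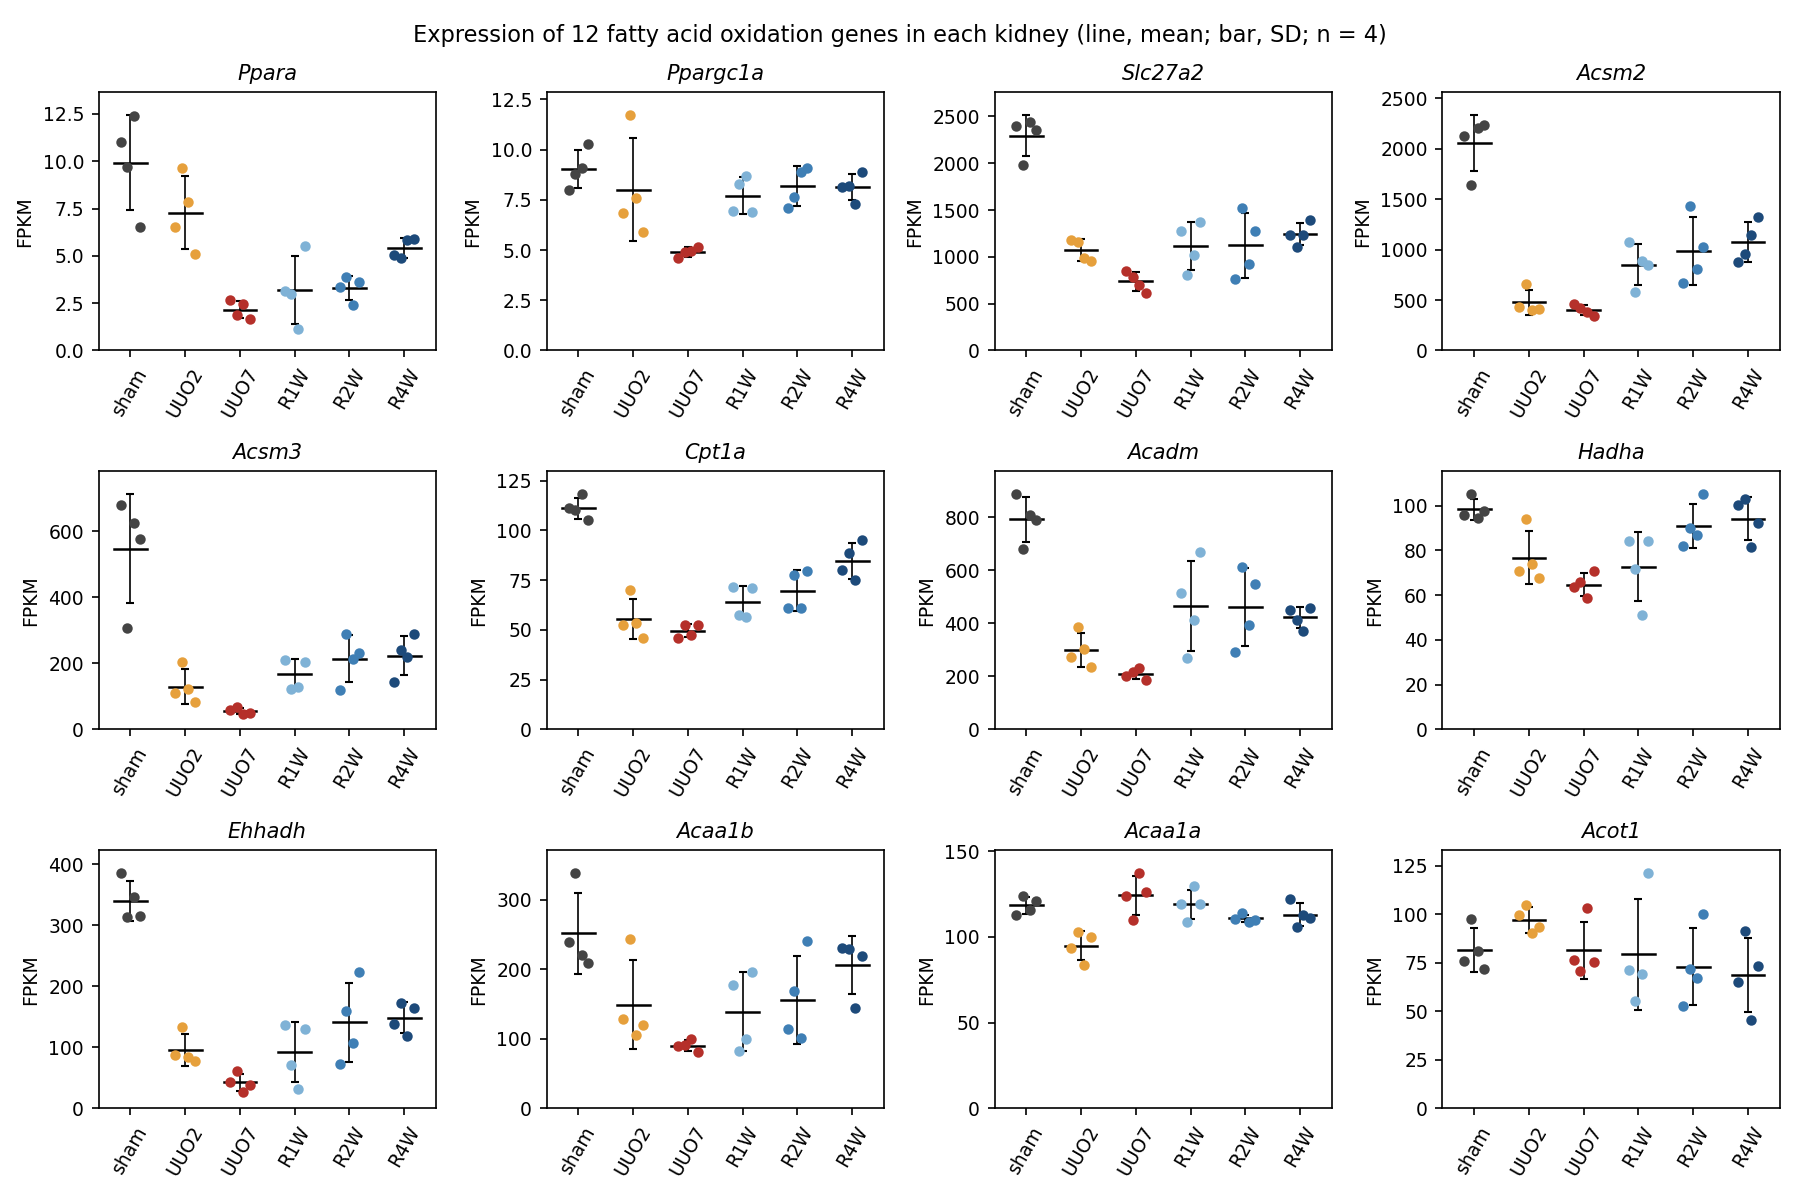
FPKM of 12 of the genes in each kidney, by group, on linear axes from 0, with the mean as a line and the SD as a bar (n = 4). Slc27a2 and Acsm2 lie at 1642 FPKM or more in sham and at 849 or less in UUO7, while Acaa1a and Acot1 overlap between these groups.

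Because Acsm2 is the one gene of the set with a TATA box in a RefSeq upstream window, in 1 of its 2 windows, the 250 bases before that annotated start are shown, 5′ to 3′ on the coding strand, with TATAAA in capitals. They lie at chr7:119554090-119554339 on the plus strand of GRCm38.p6 and come from RefSeq. The motif starts 28 bases before the start site.
Acsm2: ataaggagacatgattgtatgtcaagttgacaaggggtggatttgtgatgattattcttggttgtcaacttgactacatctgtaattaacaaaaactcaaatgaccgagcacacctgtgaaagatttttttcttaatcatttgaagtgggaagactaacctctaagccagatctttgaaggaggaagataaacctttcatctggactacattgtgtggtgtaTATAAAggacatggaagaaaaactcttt

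Of the 34 genes, 30 had such a RefSeq window. TATAAA, counted on both strands, was in 1 of these 30 (3.3%) and in 14.327% of 27018 genes. GGGCGG, the GC box, was in 19 of 30 (63.3%) and in 35.362% of all genes. CCAAT was in 14 of 30 (46.7%) and in 37.501% of all. AGGTCA, a half-site of nuclear receptors, was in 7 of 30 (23.3%) against 15.767% of all, and a direct repeat of AGGTCA with 1 base between, the arrangement of a PPAR response element, was in 0 of 30 against 0.041% of all. The windows of the 30 genes had a median GC content of 58.8%, compared with 52.4% over all genes. A match describes these letters in this window only.

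In carnitine transfer all 4 genes were called lower in UUO7, with a median of -1.15. Cpt1a, which makes the carnitine ester at the outer mitochondrial membrane and is the controlled step of entry, fell from 105 to 118 FPKM in sham to 46.0 to 52.6 in UUO7. On deposited values most of the fall of Cpt1a was in place by day 2, when it lay at 52.6, 69.9, 53.6 and 45.7 FPKM. The day 2 to day 7 difference of -0.14 was not called (limma adjusted p = 0.287). On rescaled values that step was -0.49 and called, and in the authors' deposited table it was -0.55 with an adjusted p of 0.000636. After reversal Cpt1a rose from UUO7 to R1W by 0.36 and from R1W to R4W by 0.40 on the log2 scale (limma adjusted p = 0.0451 and 0.0247). Neither step was called without the libraries with adipocyte markers (adjusted p = 0.124 and 0.0631), and the first was not called on rescaled values (adjusted p = 0.0623). The first step also lost its call without R1W replicate 1 or 4 or without any 1 of the UUO7 kidneys (adjusted p of 0.0547 to 0.132), and the second without R1W replicate 2 or 3 or R4W replicate 2 or 4 (0.0535 to 0.106).

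Crot (chromosome 5, 8966033 to 8997324, minus strand), the peroxisomal carnitine octanoyltransferase that exports shortened chains, fell furthest in this role. It lay at 237, 167, 239.6 and 226 FPKM in sham and 63.9, 69.8, 54.9 and 62.4 in UUO7, a log2 fold change of -1.77 (SE 0.16, limma adjusted p = 5.36e-09). Its R4W values of 103, 87.1, 88.7 and 124 FPKM were still below every sham kidney, with a log2 fold change of -1.10 (SE 0.16, limma adjusted p = 8.23e-06). Cpt2 (chromosome 4, 107903981 to 107923610, minus strand), which releases the chain inside the mitochondrion, fell least. Its values were 93.6, 100.4, 92.7 and 89.6 FPKM in sham, 55.5, 56.1, 47.9 and 56.8 in UUO2 and 52.3, 53.5, 69.1 and 52.3 in UUO7, a log2 fold change of -0.73 (SE 0.15, limma adjusted p = 0.000128). Crat, the carnitine acetyltransferase, fell from 50.5 to 60.6 FPKM in sham to 23.5 to 25.9 in UUO7.

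The first step of mitochondrial beta-oxidation is carried out by acyl-CoA dehydrogenases that differ by chain length, and these differed in the size of their fall. The medium-chain enzyme gene Acadm (chromosome 3, 153922357 to 153944632, minus strand) was at 886, 681, 810.1 and 791 FPKM in sham, 274, 385, 304 and 235 in UUO2 and 201, 215, 233 and 186 in UUO7. No kidney of UUO2 or UUO7 reached the sham range, and the log2 fold change at day 7 was -1.92 (SE 0.23, limma adjusted p = 1.46e-07). After reversal it was at 515, 269, 411 and 669 FPKM in R1W. The R2W kidneys had 292, 613, 395 and 549 FPKM and those of R4W 449, 413, 370.0 and 457. R1W was above UUO7 by 1.08 on the log2 scale (SE 0.23, limma adjusted p = 0.00434), and the R4W against R1W difference of -0.07 was not called (adjusted p = 0.853).

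Acadvl (chromosome 11, 70010183 to 70015411, minus strand), for very long chains, was at 201, 208, 195 and 206 FPKM in sham, 138, 130.5, 168 and 127 in UUO7 and 172, 158, 135 and 158 in R4W. Its log2 fold change was -0.53 in UUO7 (SE 0.12, limma adjusted p = 0.000315) and -0.38 in R4W (SE 0.12, adjusted p = 0.00666). Acadl, the long-chain gene, fell by 0.55 on the log2 scale in UUO7 and Acads, the short-chain gene, by 1.40. Within a library the ratio of Acadm to Acadvl was 3.92 ± 0.488 in sham, 1.74 ± 0.262 in UUO2, 1.49 ± 0.112 in UUO7 and 2.72 ± 0.134 in R4W (SD, n = 4). The ranges of this ratio in sham (3.27 to 4.40) and in UUO7 (1.38 to 1.65) did not overlap. Acadm and Acadvl were picked for the largest and smallest day-7 fall of this role. A lower ratio in UUO7 follows from that choice and is given as a description.

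Electrons from these dehydrogenases pass through the flavoprotein ETF, encoded by Etfa and Etfb, to its oxidoreductase, encoded by Etfdh, and 3 of 3 genes were called lower in UUO7. Etfdh (chromosome 3, 79603788 to 79629500, minus strand) fell most, from 84.0, 73.5, 83.7 and 75.8 FPKM in sham to a mean of 27.1 ± 6.51 (SD, n = 4) in UUO7, where every kidney was below sham, with a log2 fold change of -1.54 (SE 0.20, limma adjusted p = 6.92e-07). Its R1W values were 42.2, 34.1, 18.1 and 38.0 FPKM, overlapping with UUO7, and its R4W values were 51.3, 52.0, 45.4 and 59.3. Etfdh rose from R1W to R4W by 0.69 on the log2 scale (SE 0.20, limma adjusted p = 0.0247). Without R1W replicate 3 the Etfdh rise was 0.44 and not called (adjusted p = 0.123), and it was not called without R4W replicate 1 or 4 (0.0521 and 0.0722) or without the libraries with adipocyte markers (0.79, adjusted p = 0.0709). Etfb (chromosome 7, 43444083 to 43457800, plus strand) fell least, from 759, 731, 704 and 744 FPKM to 407, 381, 463 and 335, a log2 fold change of -0.90 (SE 0.14, limma adjusted p = 5.03e-06). Of the 100-base stretches of the Etfb transcript, 65.2% also occur in Gm45233, so its reads could be split between the 2 genes. Etfa, by contrast with Etfdh, was already above every UUO7 kidney in R1W, by 0.57 on the log2 scale (limma adjusted p = 0.00605).

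The later mitochondrial steps, hydration, second oxidation and thiolysis, were lower in UUO7 for 5 of 5 genes with a median of -0.78. Hadh (chromosome 3, 131233419 to 131272101, minus strand), the short-chain hydroxyacyl-CoA dehydrogenase, had the largest fall. It was at 308, 301, 315 and 314 FPKM in sham, 133, 143, 157 and 127 in UUO7 and 228, 216, 209 and 248 in R4W. Its log2 fold change from sham came to -1.14 in UUO7 (SE 0.14, limma adjusted p = 2.67e-07) and -0.46 in R4W (SE 0.14, adjusted p = 0.00734). The R4W value of Hadh without the libraries with adipocyte markers was -0.43 and not called (adjusted p = 0.0701).

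Hadha and Hadhb encode the 2 subunits of the mitochondrial trifunctional protein, which handles long chains, and their day-7 falls of -0.60 and -0.59 were alike in size. Hadhb (chromosome 5, 30155248 to 30184593, plus strand) was at 163, 194, 165 and 175 FPKM in sham, 116, 111, 128 and 106 in UUO7 and 177, 144, 135 and 153 in R4W. UUO7 did not overlap with sham (SE 0.11, limma adjusted p = 4.1e-05), whereas R4W overlapped and its log2 fold change of -0.20 was not called (adjusted p = 0.110), although without R4W replicate 1 it was -0.27 and called (0.0379). Of the 100-base stretches of Hadhb, 52.8% also occur in Gm13910. Hadha in R4W, at 100.2, 103, 81.5 and 92.2 FPKM, also overlapped with sham, with a log2 fold change of -0.07 (adjusted p = 0.653). On rescaled values both genes were called lower in R4W, at -0.44 for Hadha and -0.57 for Hadhb. Acaa2, the mitochondrial thiolase, fell from 128 to 176 FPKM in sham to 54.5 to 75.1 in UUO7, and Echs1, the short-chain enoyl-CoA hydratase, from 158 to 168 to 90.4 to 98.7.

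Unsaturated chains need the auxiliary enzymes of Decr1, a dienoyl-CoA reductase, and Eci1, an isomerase. Neither was called at day 2 and both were called at day 7. Decr1 (chromosome 4, 15917240 to 15945507, minus strand) lay at 84.6, 80.7, 81.8 and 80.2 FPKM in sham, 74.3, 81.9, 69.2 and 68.7 in UUO2 and 49.5, 52.5, 54.0 and 45.2 in UUO7. Its log2 fold change was -0.16 at day 2 (SE 0.11, limma adjusted p = 0.257) and -0.69 at day 7 (SE 0.11, adjusted p = 7.75e-06). In the authors' deposited table the day-2 value of Decr1 was -0.27 with an adjusted p of 0.0144. Eci1 (chromosome 17, 24426683 to 24439316, plus strand) lay at 102, 118, 99.6 and 94.6 FPKM in sham, 84.1, 127, 75.9 and 79.7 in UUO2 and 66.0, 66.9, 60.9 and 65.4 in UUO7. UUO2 replicate 2 was above every sham kidney, and without it the day-2 log2 fold change went from -0.20 to -0.37 and was called (limma adjusted p = 0.294 and 0.0315).

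Among the 8 peroxisomal genes, 7 were called lower in UUO7, with a median of -0.75, and the range was the widest of any role. Ehhadh (chromosome 16, 21761287 to 21787844, minus strand), the bifunctional enzyme for straight chains and a long-known PPAR-alpha target, was at 385, 313, 346 and 316 FPKM in sham and 87.3, 134, 84.0 and 77.0 in UUO2. By day 7 it was at 43.9, 61.5, 26.4 and 39.1 FPKM, 8.10 times lower than sham on the log2(FPKM + 1) scale (log2 fold change -3.02, SE 0.36, limma adjusted p = 2.01e-07). It spread widely in early recovery, with 136, 71.3, 32.2 and 129.5 FPKM in R1W and 73.5, 159.9, 108 and 223 in R2W. R1W overlapped with UUO7 and its rise of 0.95 on the log2 scale was not called (SE 0.36, limma adjusted p = 0.0814), although without R1W replicate 3 it was 1.38 and called (0.00801). R4W values of 138, 173, 118 and 165 FPKM stayed below sham, with a log2 fold change of -1.20 (SE 0.36, adjusted p = 0.00678), which was -1.04 and not called without the libraries with adipocyte markers (0.0793).

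Hsd17b4, which encodes the other peroxisomal bifunctional enzyme and acts on branched chains and bile acid intermediates, fell by 0.54 on the log2 scale (SE 0.08, limma adjusted p = 4.91e-06), from 91.6 to 97.0 FPKM in sham to 61.7 to 67.5 in UUO7. On rescaled values the change of Hsd17b4 was -1.02. The ratio of Ehhadh to Hsd17b4 within a library was 3.60 ± 0.350 in sham, 1.07 ± 0.184 in UUO2, 0.655 ± 0.200 in UUO7 and 1.93 ± 0.380 in R4W (SD, n = 4). Its sham range of 3.22 to 4.04 lay above the range of each other group. The difference in fall between the 2 genes is given as a description, since the pair was chosen with their values known.

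Acaa1a and Acaa1b are the paralogous peroxisomal 3-ketoacyl-CoA thiolases, and at day 7 Acaa1b was called lower on deposited values and both on rescaled values. Acaa1b (chromosome 9, 119148023 to 119157093, minus strand) was at 239, 338, 221 and 209 FPKM in sham, 89.3, 91.5, 99.8 and 81.2 in UUO7 and 231, 230.0, 145 and 219.5 in R4W. Its log2 fold change was -1.44 in UUO7 (SE 0.30, limma adjusted p = 0.000148), and in R4W it was -0.28 and not called (adjusted p = 0.401). The R4W value of Acaa1b was -0.66 on rescaled values and 0.01 without the libraries with adipocyte markers, neither of them called (adjusted p = 0.0757 and 0.981). Acaa1a (chromosome 9, 119339676 to 119350299, plus strand) was at 113, 124, 116 and 121 FPKM in sham, 93.3, 103, 83.5 and 100.2 in UUO2 and 124, 109.8, 137 and 126 in UUO7. UUO7 overlapped with sham, with a log2 fold change of 0.06 (SE 0.07, limma adjusted p = 0.425). On rescaled values it was -0.42 and called lower, so its direction depends on the scaling.

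At day 2 Acaa1a was below sham by 0.32 on the log2 scale (limma adjusted p = 0.000901), and from day 2 to day 7 it was called higher by 0.39 (adjusted p = 8.69e-05), which on rescaled values was 0.04 and not called. The ratio of Acaa1b to Acaa1a, which does not depend on that scaling, was 2.11 ± 0.431 in sham, 0.731 ± 0.0781 in UUO7, 1.17 ± 0.476 in R1W and 1.83 ± 0.386 in R4W (SD, n = 4). In sham it ranged from 1.72 to 2.72 and in UUO7 from 0.644 to 0.834. Of the 100-base stretches of the Acaa1a transcript 21.6% also occur in Acaa1b, and 22.6% of those of Acaa1b in Acaa1a, so some reads could have been assigned to either.

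The upstream windows of these 2 thiolase genes are shown because the genes are paralogs. Each is 250 bases before the annotated start, 5′ to 3′ on the coding strand, from RefSeq on GRCm38.p6, with the GC box GGGCGG and the box CCAAT on either strand in capitals. The window of Acaa1a is at chr9:119341044-119341293 on the plus strand and that of Acaa1b at chr9:119157094-119157343 on the minus strand.
Acaa1a: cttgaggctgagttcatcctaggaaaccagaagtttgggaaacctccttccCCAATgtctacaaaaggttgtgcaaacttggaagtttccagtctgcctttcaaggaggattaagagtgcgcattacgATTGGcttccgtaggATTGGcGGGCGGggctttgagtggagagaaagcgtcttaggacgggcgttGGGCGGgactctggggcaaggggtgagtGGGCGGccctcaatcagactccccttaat
Acaa1b: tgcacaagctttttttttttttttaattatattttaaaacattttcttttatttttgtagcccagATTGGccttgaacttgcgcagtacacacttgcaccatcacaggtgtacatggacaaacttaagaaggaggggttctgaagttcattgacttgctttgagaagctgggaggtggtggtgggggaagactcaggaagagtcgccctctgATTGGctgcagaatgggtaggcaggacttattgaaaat
Acaa1a has 3 GC boxes, 3 CCAAT matches, 10 CG pairs and 53.6% GC, whereas Acaa1b has 0 GC boxes, 2 CCAAT matches, 2 CG pairs and 41.6% GC. Neither window holds AGGTCA or TATAAA.

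Eci2 (chromosome 13, 34977748 to 35027096, minus strand), an isomerase for unsaturated chains, had the smallest fall called at day 7 on deposited values. Values were 139.9, 142, 145 and 147 FPKM in sham, 94.4, 118, 87.6 and 86.5 in UUO2 and 97.2, 113, 114 and 110.1 in UUO7. Both groups lay below sham, with log2 fold changes of -0.58 at day 2 (SE 0.09, limma adjusted p = 3.83e-05) and -0.40 at day 7 (SE 0.09, adjusted p = 0.000557). On rescaled values the order turned, with -0.71 at day 2 and -0.89 at day 7. The day 2 to day 7 step of Eci2 was not called on either scale (0.17 and -0.17), and in the authors' deposited table it was -0.33 with an adjusted p of 0.0131. Scp2, which encodes sterol carrier protein and a thiolase for branched chains, fell from 672 to 785 FPKM in sham to 197 to 258 in UUO7, a log2 fold change of -1.70, and 32.2% of its 100-base stretches also occur in Scp2-ps2. Pex11a, a factor of peroxisome division and a PPAR-alpha target, fell by 0.89 on the log2 scale and Decr2, the peroxisomal dienoyl-CoA reductase, by 0.62.

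Acot1 (chromosome 12, 84009490 to 84018371, plus strand), a cytosolic thioesterase that splits long-chain acyl-CoA, went against the rest in not being called in any of the 8 comparisons on deposited values. It was at 76.0, 97.8, 81.3 and 71.8 FPKM in sham, 99.6, 105, 90.4 and 93.2 in UUO2 and 76.5, 71.0, 103 and 75.3 in UUO7, and at 65.1, 91.3, 45.6 and 73.5 in R4W. All groups overlapped with sham. The log2 fold change was 0.25 at day 2 (SE 0.22, limma adjusted p = 0.351), -0.01 at day 7 (SE 0.22, adjusted p = 0.972) and -0.28 in R4W (SE 0.22, adjusted p = 0.265), the last 0.10 without the libraries with adipocyte markers. Rescaled values gave -0.49 at day 7 (not called) and -0.54, -0.58 and -0.65 in R1W, R2W and R4W (called lower). The rescaled step from UUO2 to UUO7 was -0.61 and called (limma adjusted p = 0.0262). In the authors' deposited table Acot1 was lower in UUO7, at -0.70 against sham (adjusted p of 2.2e-10) and -0.86 against UUO2 (1.01e-10). It was at -0.67 in R1W, R2W and R4W there, so whether Acot1 fell depends on the scaling and the model. Of its 100-base stretches 21.9% also occur in other genes, mostly Acot2.

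**Figure D3:**
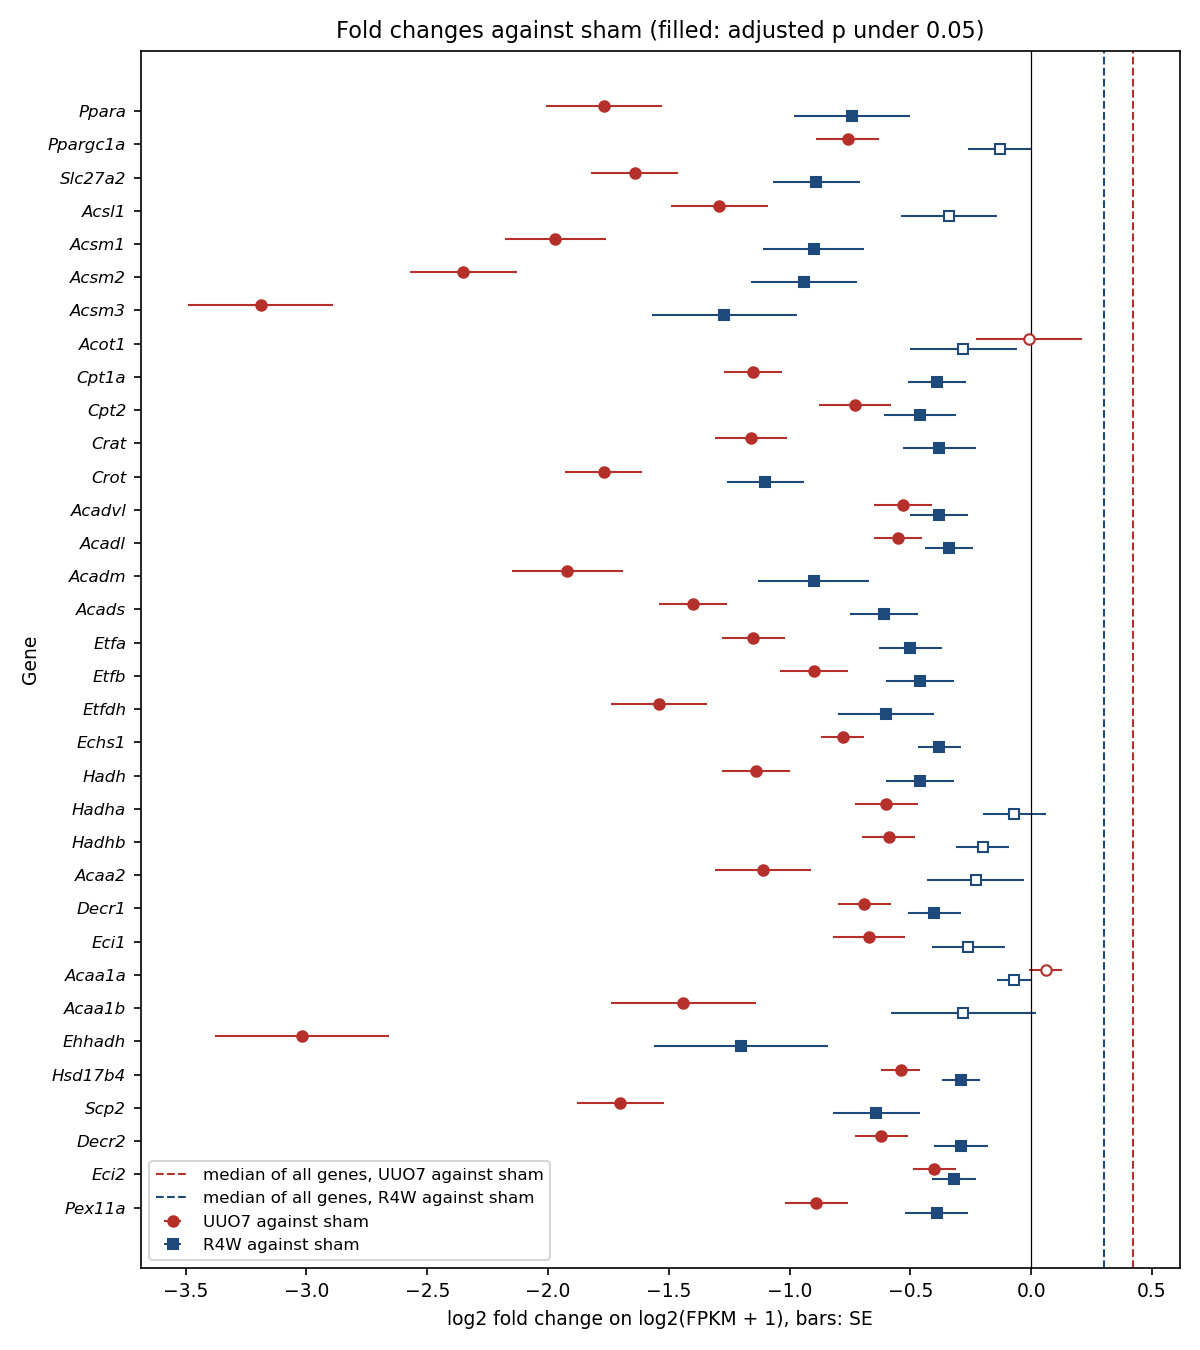
Log2 fold changes of the 34 genes against sham in UUO7 (red circles) and R4W (blue squares), with SE as bars and filled symbols for adjusted p under 0.05. Dashed lines mark the median of all genes, 0.42 and 0.30, and almost all symbols lie to the left of 0, with Acsm3 and Ehhadh furthest.

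The fall was partly in place after 2 days. In UUO2 against sham 25 of 34 genes were called lower and 0 higher, with a median of -0.54, compared with 17.0% of all genes called lower, 32.3% called higher and a median of 0.09. The 9 not called were Ppara, Ppargc1a, Acsl1, Acot1, Acadvl, Acadl, Decr1, Eci1 and Hsd17b4. Of these, Ppara, Acadvl, Acadl and Decr1 were lower at an adjusted p under 0.05 in the authors' deposited table. Without UUO2 replicate 2, Ppargc1a was -0.37 in place of -0.19 and called (limma adjusted p = 0.00431), and Acadvl was -0.31 and called (0.0395). Leaving out other single kidneys took away the day-2 call of Crat, Hadha, Acaa1b, Decr2 or Pex11a, at a limma adjusted p of 0.0513 to 0.0958. Without the libraries with adipocyte markers Hadha, Acaa1b and Decr2 were not called at day 2 (0.0690, 0.106 and 0.0899). From day 2 to day 7, 23 were called lower and 1, Acaa1a, higher, with a median of -0.48. Over all genes 14.7% were called lower and 52.0% higher in that step. Among the 31 genes with a day-7 fall of at least 0.5 on the log2 scale, the share of that fall reached by day 2 had a median of 54.9% and ranged from 19.0% to 109%. These shares are from deposited values, and the highest was that of Cpt2. Its day 2 to day 7 step was 0.06 on deposited and -0.28 on rescaled values, neither called. In the authors' deposited table that step was -0.59 with an adjusted p of 1.87e-08. No UUO2 library showed whole-read steps, as given above, and the part of this in the day-2 values was not tested.

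All comparisons with sham use the same 4 sham kidneys, so they are not independent of each other. In R1W 31 genes were called lower than sham with a median of -0.61, in R2W 30 with a median of -0.63, and in R4W 25 with a median of -0.39. None was called higher. Of all genes 14.7% were called lower and 59.4% higher in R1W, 12.9% lower and 56.1% higher in R2W, and 11.6% lower and 54.8% higher in R4W, with medians of 0.37, 0.32 and 0.30. All 25 genes called in R4W were also called in UUO7. The 7 called in UUO7 and not in R4W were Ppargc1a, Acsl1, Hadha, Hadhb, Acaa2, Eci1 and Acaa1b. Of these, Acsl1 and Hadhb were called in R4W without R4W replicate 1, as given above.

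The R4W count differed with the scaling and with the libraries used. On rescaled values 33 of 34 were called lower in R4W, beside 31.1% of all genes. In R1W and R2W it was 34 each, beside 34.6% and 32.5% of all genes, in UUO2 against sham 27, beside 25.5%, and in UUO7 against UUO2 30, beside 31.9%. The authors' deposited table gives 34 lower in R4W, beside 34.8% of all genes. It gives 29 lower in UUO2 against sham, beside 24.4%, and 33 in UUO7 against UUO2, beside 33.7%. Without the 4 libraries with adipocyte markers, which leaves 2 R4W and 3 sham kidneys, 12 were called lower in place of 25, beside 8.20% of all genes, and 20 had an unadjusted p under 0.05. Of the 13 calls lost, 11 had a smaller log2 fold change without these libraries and 2 did not, and the median of the 13 was -0.37 in place of -0.40. Their folds without these libraries ran from 70.1% of the original log2 value in Cpt1a to 111% in Crat. Fewer kidneys and the absence of fat markers cannot be told apart in this count. The same omission left 32 called lower in UUO7, beside 16.1% of all genes.

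Direct comparison of groups after reversal showed fewer changes. In R1W against UUO7, 12 of 34 genes were called higher and 0 lower, against 6.47% of all genes called higher and 8.04% lower. The 12 were Ppargc1a, Slc27a2, Acsm2, Acsm3, Cpt1a, Crot, Acadm, Etfa, Echs1, Hadh, Acaa2 and Scp2. Their log2 rises ran from 0.35 for Echs1 to 1.50 for Acsm3. On rescaled values 10 were called, without Slc27a2 and Cpt1a, beside 7.26% of all genes, and 15 were higher in the authors' deposited table, beside 10.3% there. The count was 6 without R1W replicate 1, 5 without R1W replicate 4, 7 without UUO7 replicate 4, and 5 without the libraries with adipocyte markers, beside 3.17% of all genes.

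In R4W against R1W, 7 genes were called higher and 0 lower: Ppara, Acsl1, Cpt1a, Crat, Acads, Etfdh and Hadha. Over all genes 5.06% were called higher and 14.1% lower. Rescaled values called 7 higher, beside 8.67% of all genes, and 7 were higher in the authors' deposited table, beside 8.75% there. The comparisons of R1W with UUO7 and of R4W with R1W share the R1W kidneys. The count fell to 0 without R1W replicate 3 (7 genes at an unadjusted p under 0.05), to 2 without R4W replicate 1 or without R4W replicate 4, and to 3 without R1W replicate 2. It was also 0 without the libraries with adipocyte markers, beside 0.446% of all genes, where 10 had an unadjusted p under 0.05 in limma.

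The share of the day-7 fall that had been regained, computed from group means of log2(FPKM + 1) for the 31 genes with a fall of at least 0.5, had a median of 34.4% in R1W, 41.1% in R2W and 58.1% in R4W. In R4W it ran from 27.4% for Acadvl to 88.6% for Hadha. In R1W it ran from 7.43% for Eci1 to 73.1% for Ppargc1a, and the highest on rescaled values was 48.7%. The lowest R1W share was 3.61% without the libraries with adipocyte markers. Without R1W replicate 1 or 4 the Eci1 step from UUO7 to R1W was -0.04 in place of 0.05, neither called. Rescaled values gave lower medians of 25.2%, 34.9% and 47.8%. Without the libraries with adipocyte markers the medians were 33.0%, 40.0% and 59.7%. These shares are descriptions of group means and carry no test.

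**Figure D4:**
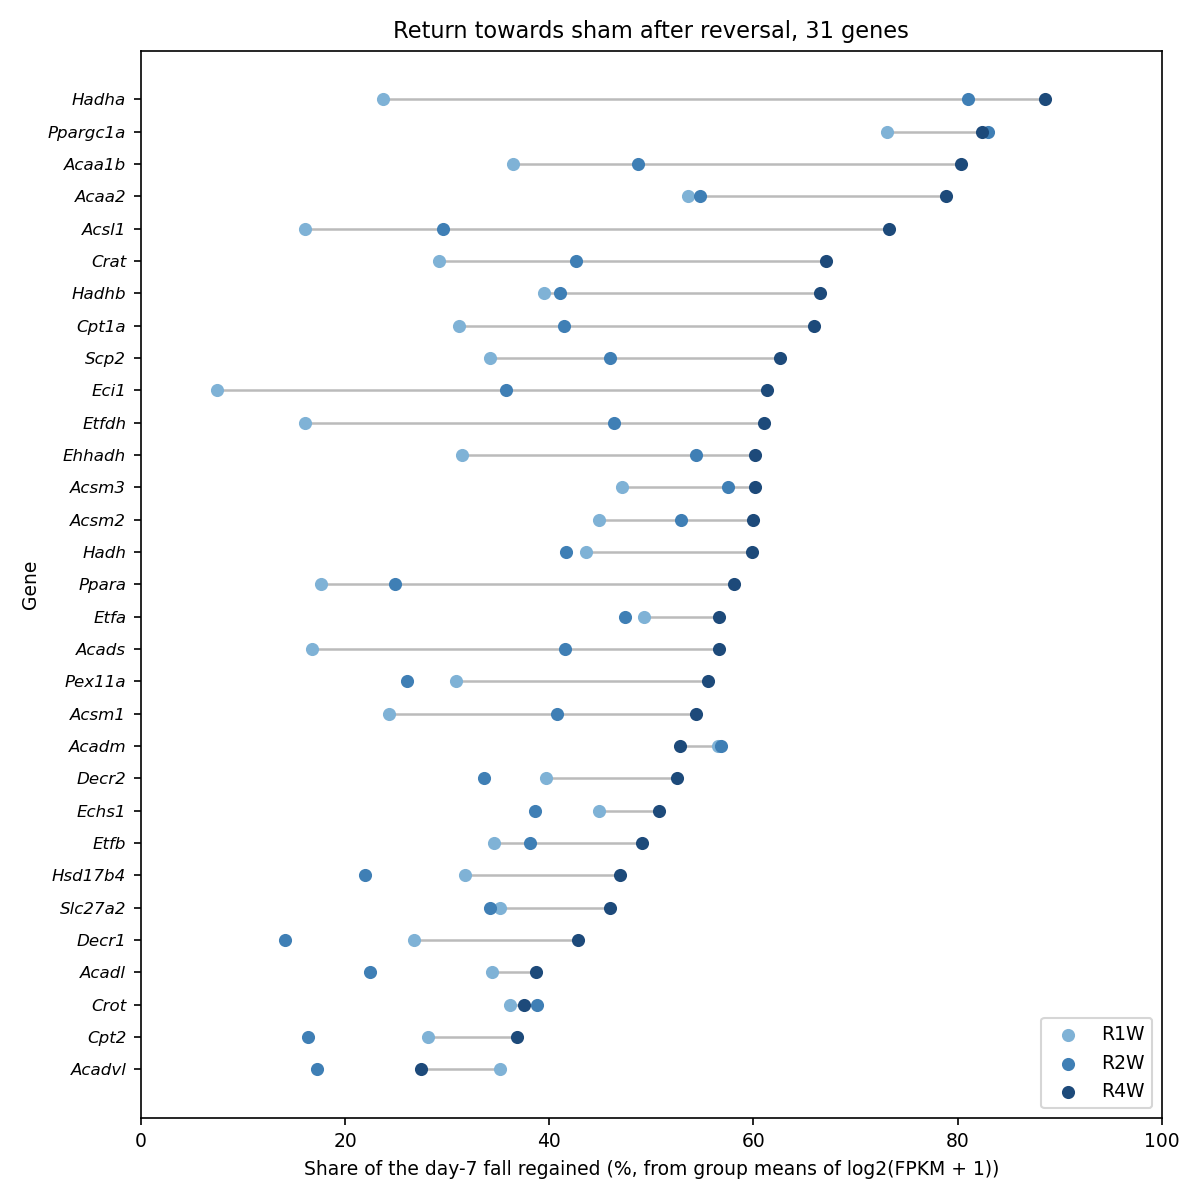
Share of the day-7 fall regained in R1W, R2W and R4W (in percent, from group means of log2(FPKM + 1)) for 31 genes, ordered by the R4W share. The R4W points run from 27.4% for Acadvl to 88.6% for Hadha, and for most genes they lie to the right of R1W.

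Next to the proximal tubule markers the 34 genes lay relatively higher during obstruction. The mean of log2(FPKM + 1) over the 34 genes minus that over the 12 markers was -0.49 ± 0.09 in sham, -0.07 ± 0.08 in UUO2, 0.58 ± 0.19 in UUO7, 0.18 ± 0.14 in R1W, 0.05 ± 0.20 in R2W and -0.12 ± 0.17 in R4W (SD, n = 4). In UUO7 it ranged from 0.42 to 0.79, above the sham range of -0.59 to -0.40. The injured tubule markers went the other way, with 5 of 5 called higher in UUO7 and sums of 1375 to 1726 FPKM compared with 5.42 to 21.2 in sham. Macrophage and fibroblast markers were also higher in UUO7, 7 of 7 and 6 of 6. All injured tubule, macrophage and fibroblast markers were still called higher than sham in R4W, with medians of 2.55, 3.60 and 2.37. Lymphocyte markers, 4 measured of 7 listed, were called higher in 4 of 4 in both UUO7 and R4W. Markers of other nephron segments were lower at day 7 in 4 of 5 for the thick ascending limb, with a median of -1.23, in 3 of 4 for the distal convoluted tubule and in 3 of 5 for the collecting duct. In R4W 0 of 5, 1 of 4 and 0 of 5 of these were lower. Urothelium markers were called higher in 1 of 4 in UUO7, 0 on rescaled values, and in 4 of 4 in R4W, with a median of 3.02. The part of these cell types in the lower share of fatty acid oxidation RNA was not tested.

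**Figure D5:**
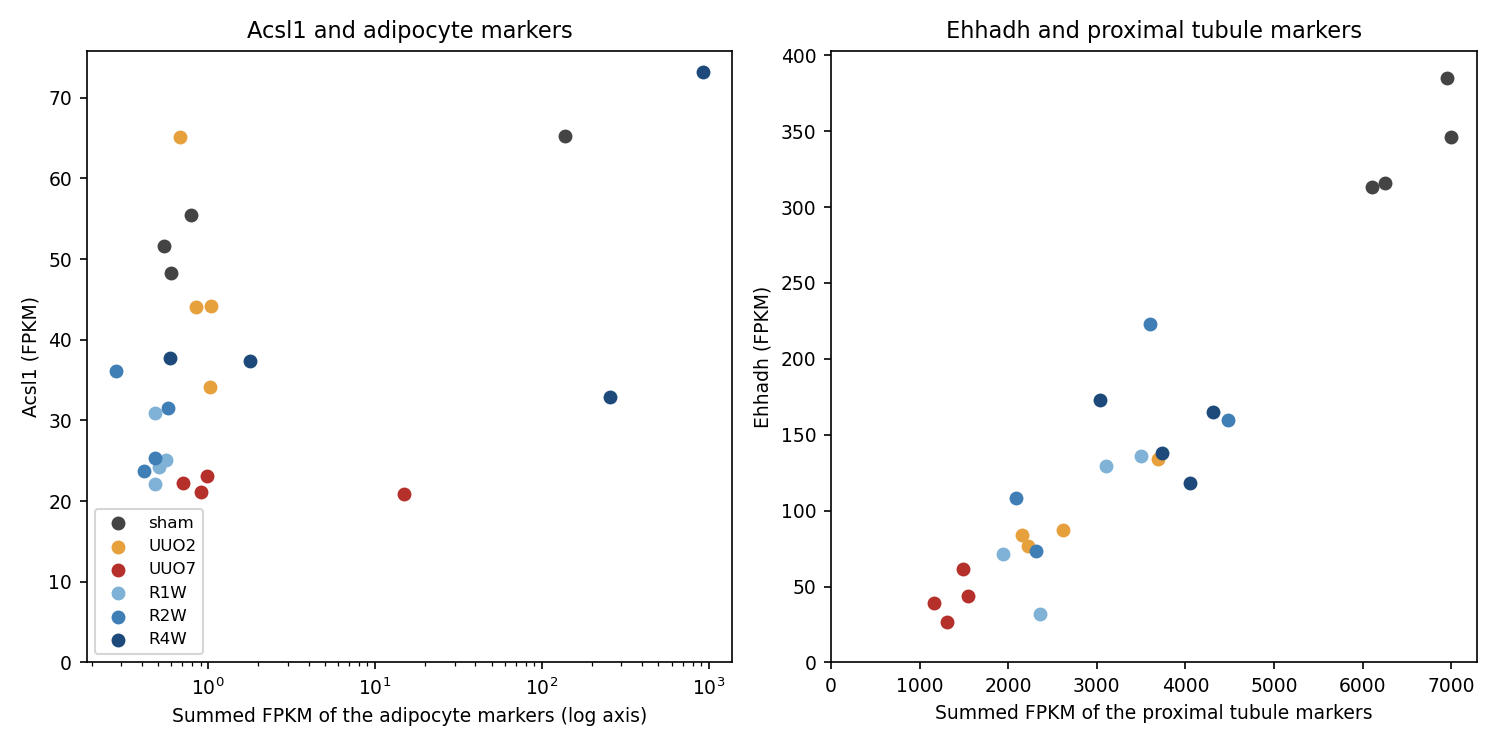
FPKM of Acsl1 against the summed adipocyte markers (left, log x axis) and of Ehhadh against the summed proximal tubule markers (right), 1 point per kidney, coloured by group. R4W replicate 1 is the point at 924 FPKM of adipocyte markers and 73.2 FPKM of Acsl1, and on the right the sham kidneys sit at 6109.6 FPKM or more and those of UUO7 at 1551 or less.

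Other genes of fatty acid metabolism, 131 measured of 140 listed, mostly fell but less uniformly. In UUO7 75 of the 131 were called lower and 28 higher, with a median of -0.42, and on rescaled values 93 lower and 16 higher. Of all genes 17.8% were lower and 60.1% higher on deposited values, and 36.5% each way on rescaled values, and the counts of the lists that follow stand beside these shares. The remaining mitochondrial acyl-CoA genes, which include branched-chain amino acid enzymes, had 11 of 12 called lower and a median of -1.08. Gcdh, the glutaryl-CoA dehydrogenase, fell from 226 ± 17.1 FPKM in sham to 61.0 ± 7.10 in UUO7 (SD, n = 4), and Ivd, the isovaleryl-CoA dehydrogenase, from 256 ± 24.8 to 78.9 ± 6.58. Of the other carnitine genes 5 of 8 were lower and 1 higher. Cpt1b, the muscle-type transferase, and Slc22a4, a cation and carnitine transporter, fell by 1.72 and 1.41 on the log2 scale, whereas Cpt1c, a brain-type form, rose from 0.802 ± 0.273 to 6.27 ± 0.739 FPKM.

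Among other peroxisomal genes 18 of 25 were called lower in UUO7 and 2 higher, the latter 0 on rescaled values. Amacr, the racemase for branched chains, and Pecr, an enoyl-CoA reductase, fell by 2.48 and 2.11 on the log2 scale. The import factor Pex26 was called higher at 0.19, and its rescaled value was -0.25.

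The other PPAR-alpha targets, 17 measured of 20, had 9 called lower and 5 higher in UUO7, and on rescaled values 9 lower and 4 higher, beside 60.1% and 36.5% of all genes higher. Cyp4b1, a fatty acid hydroxylase, fell from 1530.2 ± 138 FPKM in sham to 151 ± 47.4 in UUO7, and Cyp4a12a from 24.1 ± 10.2 to 4.21 ± 1.93 (SD, n = 4). Cyp4a10, a widely used reporter of PPAR-alpha activity, was 129 ± 33.5 in sham, 187 ± 97.8 in UUO2 and 42.7 ± 8.60 in UUO7. It was not called at day 2 (limma adjusted p = 0.403) and fell by 1.56 on the log2 scale at day 7 (SE 0.43, adjusted p = 0.00254). Its neighbour in the family, Cyp4a14, rose at day 2 from 17.7 ± 17.5 to 108 ± 67.6 FPKM, by 2.79 on the log2 scale (SE 0.81, adjusted p = 0.00683). At day 7 Cyp4a14 was at 19.4 ± 8.29 FPKM and not called (adjusted p = 0.618).

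The targets that rose at day 7 included secreted and mitochondrial regulators of fuel use. Angptl4, a secreted inhibitor of lipoprotein lipase, went from 37.7 ± 13.3 FPKM to 103 ± 10.4, and Pdk4, which restrains glucose oxidation, from 7.17 ± 2.41 to 19.3 ± 2.19 (SD, n = 4). Their log2 fold changes were 1.50 and 1.35 (limma adjusted p = 0.000159 and 0.000859). Their levels in R4W were 41.3 ± 15.4 and 7.87 ± 3.48 FPKM. Txnip rose from 146 ± 31.9 to 489 ± 65.2 FPKM.

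Uptake, binding and storage genes had 7 of 16 called lower in UUO7 and 4 higher, and on rescaled values 9 lower and 2 higher. Lpl, the lipoprotein lipase, fell from 346 ± 45.0 FPKM in sham to 64.4 ± 8.54 in UUO7 and was already at 68.5 ± 14.6 in UUO2 (SD, n = 4). Cd36, the fatty acid receptor, fell from 166 ± 30.8 to 111 ± 22.1 in UUO2 and 33.4 ± 4.41 in UUO7. Plin2, which coats lipid droplets, rose from 59.8 ± 3.89 to 165 ± 62.9 in UUO2 and 137 ± 18.0 in UUO7, by 1.18 on the log2 scale at day 7 (SE 0.23, limma adjusted p = 6.93e-05). Fabp4, an adipocyte and endothelial binding protein, was called higher in UUO7 by 1.32 (adjusted p = 0.0375), and the rescaled value of 0.84 was not called. Sham replicate 2 and UUO7 replicate 3 held adipocyte markers, and their part in the Fabp4 values was not tested.

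Activation genes outside the 34 had 10 of 18 called lower and 5 higher at day 7, and on rescaled values 13 lower and 3 higher. Acsm5 and Acss2, a medium-chain and an acetate-activating synthetase, fell by 2.30 and 1.81 on the log2 scale. Acsl4, which prefers polyunsaturated chains, rose from 5.01 ± 0.378 FPKM in sham to 12.5 ± 0.825 in UUO7, and Acsl5 from 29.2 ± 5.18 to 59.2 ± 4.33 (SD, n = 4). In contrast with Acsl1, both were also higher than sham on rescaled values, at 0.74 and 0.53.

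Of the other regulators 14 of 22 were lower in UUO7 and 7 higher, the latter 3 on rescaled values. Hnf4a, a proximal tubule transcription factor, fell from 182 ± 19.4 FPKM to 63.0 ± 8.09, and Esrra, the nuclear receptor that works with PGC-1 alpha, from 74.9 ± 2.40 to 48.9 ± 2.19 (SD, n = 4). Klf15 and Sirt3, a transcription factor and a mitochondrial deacetylase, fell by 1.69 and 1.59 on the log2 scale. Pprc1, a relative of PGC-1 alpha, rose from 4.30 ± 0.955 to 11.5 ± 0.448 FPKM, and Prkaa1, a catalytic subunit of AMPK, by 0.73. Among 14 genes of fatty acid synthesis 2 were lower, Fads2 (-1.31) and Mlxipl (-0.81), and 4 higher, among them Scd2 (1.18) and the lipogenic factor Srebf1 (1.17). On rescaled values 6 of the 14 were lower and 3 higher, with a median of -0.55 compared with -0.08.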

How the data were processed

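Kidney RNA of 24 mice, 4 in each of 6 groups by sample title, was compared. R4W replicate 2 has a title of 4 weeks and a treatment label of 2 weeks, and was grouped by title. The authors deposited 1 table of 14785 genes, whose values were taken as FPKM from their column sums of 717415 to 830179. The submitters' processing notes name FastQC, Bowtie2, RSEM, DESeq2 and mm10 without versions or roles. The log2 fold changes and adjusted p-values in the authors' deposited table are the authors' own. Libraries were made with polyA selection, per the labels' protocols. The lowest gene mean in the table was 1 FPKM, so lower genes are not analysed here.

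All 24 libraries entered one linear model per gene (limma 3.58.1, R 4.3.3, eBayes with a mean trend) of log2(FPKM + 1). It gave 8 comparisons, each adjusted by Benjamini-Hochberg over the whole table. Log2 fold changes understate low genes. For rescaled values each library was divided by the median, over genes, of its ratio to the geometric mean of that gene. Mean factors were 0.814 in sham and 1.14 in UUO7. On simulated data for UUO7 against sham, run on 14785 genes, 87 of 100 genes with a log2 change of 1 and 96 of 100 with a change of 2 were called. FPKM give no counts, so no count model was used.

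The 34 genes and all lists were chosen with earlier results of these data known. Values per kidney in sham and UUO7, and in other groups where described, were given for the gene of each role with the largest and the smallest day-7 fold, the gene highest in sham, and genes that went against the rest, except that Etfdh in UUO7 is given as a mean and SD. Other genes were named from the lists by the 2 largest called rises and falls at day 7, plus fixed genes that include Cyp4a10, Cyp4a14, Pdk4, Angptl4, Plin2, Cd36, Hnf4a and Esrra. Some genes that this rule names are not reported here. Alternatives were other scaling, pseudocounts, filters, fits and the omission of libraries. The omission of 4 libraries with adipocyte markers was chosen after seeing the data. Promoter windows and transcripts came from RefSeq (GRCm38.p6) and GENCODE transcripts of GRCm38, and figures were drawn with matplotlib 3.10.9.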

Additional observations from a re-analysis of the deposited data

Results flagged for a closer look

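Within groups of 4, 11 of 204 checks found 1 kidney standing apart from the other 3, where chance alone gives about 10.2, since it marks about 1 group in 20. UUO2 replicate 2 accounted for 5 of the 11. Its values were high for Acsm2 (663 FPKM, others 405 to 427), Crat (55.2, others 36.1 to 38.6), Hadhb (142, others 114 to 118), Eci1 (127, others 75.9 to 84.1) and Acaa1b (244, others 105 to 128). The same kidney had the highest proximal tubule marker sum of UUO2, at 3694 FPKM, compared with 2158 to 2617 in the other 3.

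Cpt2 stood apart in 3 groups, low in UUO2 replicate 3 (47.9 FPKM) and in R1W replicate 2 (47.0) and high in UUO7 replicate 3 (69.1). Acot1 was high in UUO7 replicate 3 (103 FPKM, others 71.0 to 76.5), a library with an adipocyte marker sum of 14.9 FPKM. Acsl1 was high in R4W replicate 1 (73.2 FPKM, others 32.9 to 37.7), where that sum was 924. Acaa1b was low in R4W replicate 3 (145 FPKM, others 219.5 to 231), where it was 257.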

How the results depend on the processing

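Pseudocounts of 0.1 and 10, the filter at a mean of 10 FPKM, the fit without UUO2, rescaling and the placement of R4W replicate 2 in R2W left every count of called genes within 1.5 times its main value. That filter leaves out Ppara and Ppargc1a, whose group means were all under 10 FPKM, so its counts are over fewer genes. Calls that also needed a log2 change of 1 or more in size numbered 8 in UUO2, 18 in UUO7, 11 in R1W, 7 in R2W and 3 in R4W, each against sham, where 3.01%, 5.72%, 2.71%, 1.37% and 0.548% of all genes were lower by that rule. They numbered 4 in UUO7 against UUO2, 3 in R1W against UUO7 and 0 in R4W against R1W, where 12 had an unadjusted p under 0.05 in limma. Of all genes 2.26% were lower and then 0.913% and 0.419% higher in these 3. A fit on the 2 groups compared called 0 in R4W against R1W, with 9 at an unadjusted p under 0.05.

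Without the 4 libraries with adipocyte markers, an alternative chosen after seeing the data, 12 genes were called in R4W against sham, 5 in R1W against UUO7 and 0 in R4W against R1W, with 10 at an unadjusted p under 0.05. It leaves fewer samples, and its part beside that of the markers was not tested. Leaving out 1 kidney at a time gave 20 to 28 genes in UUO2, 32 to 32 in UUO7, 28 to 31 in R1W, 27 to 30 in R2W and 23 to 27 in R4W against sham. The ranges were 21 to 26 in UUO7 against UUO2, 5 to 16 in R1W against UUO7 and 0 to 10 in R4W against R1W. Rescaling reversed Acaa1a in UUO7 (-0.42) and in R1W (-0.44) against sham.

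Replicate numbers were not treated as pairs, since in none of the 8 comparisons was the correlation of same-numbered deviations over 0.1 for every pair. The mean correlation ran from -0.174 in R4W against sham to 0.148 in R1W against UUO7, where the highest was 0.451. With 4 animals per group this rule cannot show whether animals were paired. With the replicate number as a block, 25, 32, 31, 30 and 25 genes were called against sham in the order of the groups from UUO2 to R4W, 23 in UUO7 against UUO2, 11 in R1W against UUO7 and 6 in R4W against R1W. The depth of 7 libraries, among them all of UUO2, is unknown.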
